A study of Drosophila melanogaster with 3 samples.

Results

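The genes described here are named for nuclear subunits of the oxidative phosphorylation machinery of Drosophila melanogaster. The binding of CG16779-GFP near their start sites was measured by chromatin immunoprecipitation and sequencing. They were picked out by symbol, as the protein-coding genes of the Ensembl annotation whose names start with ND-, SdhA to SdhD, COX4 to COX8, UQCR, ATPsyn or Cyt-c1, together with levy and blw. Nuclear subunit genes with other symbols, such as RFeSP, ox, cype and sun, are left out by this rule. The choice of this set was made with earlier results of these data known. The symbols gave 91 of the 13968 protein-coding genes on the chromosome arms. Complex I is represented by 40 genes, complex II by 7, complex III by 11, complex IV by 17 and complex V by 16. Of the 91 genes, 25 have symbols with an ending L, L1 or L2 that names a gene after a similar one, and are called copies here. The other 66 include ND-MNLL, whose last letter is part of a subunit name. For COX6AL, COX6AL2, COX6CL and ATPsynepsilonL no member bears the symbol without the ending of a copy.

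All libraries belonged to 1 group of 3 biological replicates, taken from whole prepupae of unknown age with males and females pooled. The animals came from 1 line in which a MiMIC insertion adds an eGFP exon to an intron of CG16779, which leaves the fusion under the control of its native locus. Chromatin had been sonicated to 200 to 800 bp and was precipitated with an antibody against GFP. There was no second condition, control libraries were not analysed here, and because whole animals were used the tissues in which a region is bound cannot be told apart. The authors' files list regions with a score: 30000 regions for each replicate, 30000 for the 3 replicates pooled, and 4822 in a set selected by the irreproducible discovery rate (IDR), of which 4805 lay on the arms. IDR peaks carry the scores of the pooled list, while each replicate has a scale of its own. The files do not give read depth, and where no region is listed the site may still be bound below the level of the list. A gene is counted as having a region when the summit lies within 500 bp of any of its annotated transcription start sites.

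Oxidative phosphorylation takes place in the inner mitochondrial membrane. Complexes I and II pass electrons from NADH and succinate to ubiquinone, complex III passes them on to cytochrome c and complex IV to oxygen, while complexes I, III and IV pump protons. Complex V, the ATP synthase, uses the return of these protons to make ATP. Apart from the subunits encoded by mitochondrial DNA, the proteins are products of nuclear genes scattered over the chromosomes.

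Few of these genes carried a strong CG16779-GFP region at their start. In the IDR set 2 of the 91 genes had a summit within 500 bp, ND-ASHI and ATPsynC, which is 2.20% (exact 95% binomial interval 0.267 to 7.71%), against 13.0% of all protein-coding genes. Within 1000 bp there were 7, or 7.69% (3.15 to 15.2%), against 16.1% of all protein-coding genes. The pooled list, which also holds weak regions, had a summit within 500 bp at 17 of the 91 genes (18.7%), against 32.0% of all protein-coding genes, and within 1000 bp at 23 (25.3%), against 38.7%. The oxidative phosphorylation genes thus had a smaller share with a region than the annotation as a whole in both lists and at both distances. The intervals cover counting error over genes only.

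To set the replicates on one footing, each list was limited to its 4805 strongest entries, the size of the IDR set on the arms. In replicate 1, 7 of the 91 genes (7.69%) had one of these regions within 500 bp, against 14.5% of all protein-coding genes. In replicates 2 and 3 it was 2 genes each (2.20%), against 15.8% and 11.4% of all protein-coding genes. The share was below that of all genes in each of the 3 replicates. The mean share was 4.03 ± 3.17% for the 91 genes and 13.9 ± 2.26% for the 13877 other protein-coding genes (SD, n = 3 replicates each). The difference, taken within each replicate, was -6.83, -13.7 and -9.25 percentage points, with a mean of -9.91 ± 3.46 (SD, n = 3; exact sign-flip permutation test, two-sided, p = 0.25, the smallest this number of replicates allows). The test measures only the spread between replicates. Within 1000 bp the strongest regions reached 12, 9 and 5 of the 91 genes in replicates 1, 2 and 3, against 17.8%, 19.1% and 14.1% of all protein-coding genes. The mean share at this distance was 9.52 ± 3.86% for the 91 genes and 17.0 ± 2.61% for the others (SD, n = 3 each), lower in 3 of 3 replicates.

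With the whole replicate lists the gap was narrower and less even. Within 500 bp, 28, 33 and 14 of the 91 genes (30.8%, 36.3% and 15.4%) had a listed region in replicates 1, 2 and 3, against 37.6%, 41.0% and 28.5% of all protein-coding genes. The mean was 27.5 ± 10.8% for the 91 genes and 35.7 ± 6.44% for other protein-coding genes, a difference of -8.24 ± 4.38 percentage points (SD, n = 3; exact permutation p = 0.25). Within 1000 bp, 35, 45 and 20 of the 91 genes (38.5%, 49.5% and 22.0%) had a listed region, against 44.3%, 47.3% and 36.4% of all protein-coding genes. In replicate 2 the share at this distance was thus above that of other genes, by 2.13 percentage points, while it was lower in the other replicates, so the mean difference of -6.09 ± 8.30 was within the spread between replicates (SD, n = 3; exact permutation p = 0.500).

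**Figure D1:**
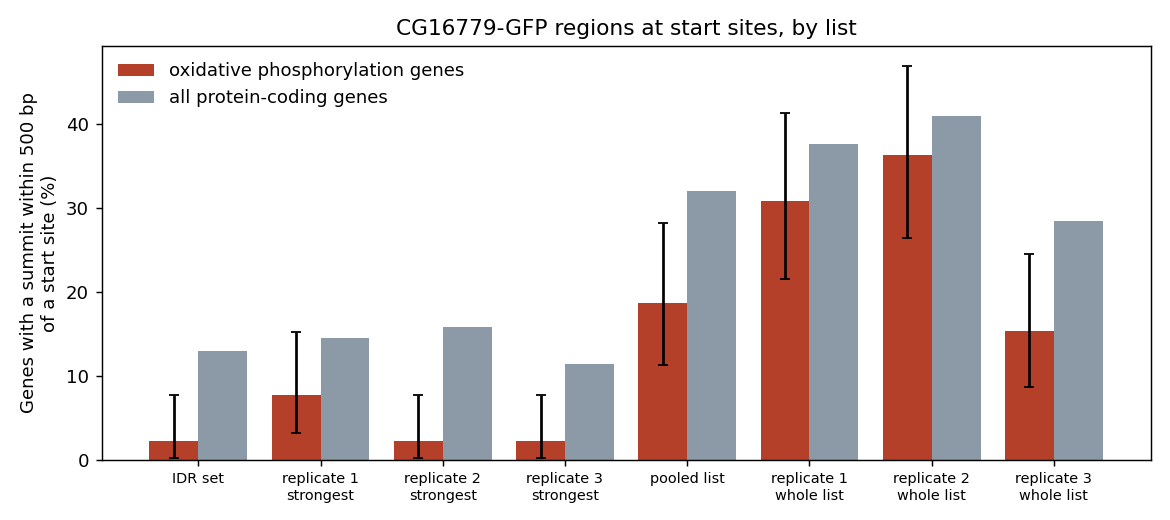
Percentage of genes with a region summit within 500 bp of a start site in each list (y axis), for the 91 oxidative phosphorylation genes (left bar of each pair, with exact 95% binomial intervals) and for all 13968 protein-coding genes (right bar). The left bar is below the right bar in all 8 lists, at 2.20% against 13.0% in the IDR set and 36.3% against 41.0% in the whole list of replicate 2.

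The strongest region at any of these genes lay at ND-ASHI (FBgn0029888, X from 6677262 to 6679118, minus strand), which encodes an accessory subunit of complex I. It ran from 6679233 to 6679507 on X, ranked 219 in the IDR set with a score of 976, and had its summit 252 bp upstream of a start of ND-ASHI. It ranked 257, 260 and 202 in replicates 1, 2 and 3, so it was among the strongest regions of every replicate. The summit also lay 270 bp from a start of Fum1, the gene of the citrate cycle enzyme fumarase, and inside an intron of that gene. The same region therefore counts for both genes, and the lists do not show which of them it belongs to.

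ATPsynC (FBgn0039830, 3R from 31216145 to 31219630, minus strand) encodes the subunit that forms the rotating proton ring of ATP synthase. Its IDR region ran from 31219306 to 31219745 on 3R, with rank 2281 and a score of 287, and the summit lay 33 bp downstream of a start, in the annotated 5′ untranslated region of the gene. It was the only IDR summit of the 91 genes within 250 bp of a start. The strongest region within 500 bp ranked 1662 in replicate 1, with the summit 94 bp downstream, 1516 in replicate 2, 211 bp downstream, and 5923 in replicate 3, 5 bp upstream. The summits of the replicates were thus spread around the start, and the region of replicate 3 was not among its 4805 strongest. The microRNA gene mir-4949 starts 154 bp from the IDR summit. In replicate 2 the summit lay 24 bp from the start of mir-4949 and 5 bp from another non-coding RNA start, both nearer than ATPsynC.

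The sequences under the summits are shown for the strongest regions near these genes, so that the places CG16779-GFP was found can be read directly. They are the 101 bases centred on the summit in the dm6 genome, from RefSeq's assembly of the same release, written 5′ to 3′ on the strand of the named gene, with the central 11 bases in capitals. The windows of ATPsynC and ATPsynD lie in annotated untranslated regions and are not printed. The window of ND-51 is from the pooled list, the others from the IDR set.
ND-ASHI, chrX:6679320-6679420, minus strand: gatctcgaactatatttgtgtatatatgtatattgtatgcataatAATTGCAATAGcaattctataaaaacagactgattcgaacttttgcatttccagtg
ND-75, chrX:8252418-8252518, minus strand: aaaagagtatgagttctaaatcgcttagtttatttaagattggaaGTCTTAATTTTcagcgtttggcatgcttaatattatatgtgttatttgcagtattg
COX7AL2, chr2L:2193564-2193664, minus strand: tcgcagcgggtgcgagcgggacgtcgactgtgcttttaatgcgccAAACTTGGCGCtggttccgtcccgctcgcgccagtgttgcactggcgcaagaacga
ND-SGDH, chr3L:12139237-12139337, minus strand: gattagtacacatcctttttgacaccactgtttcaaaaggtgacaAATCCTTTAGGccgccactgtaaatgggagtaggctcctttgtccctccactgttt
Cyt-c1L, chr3R:29204773-29204873, minus strand: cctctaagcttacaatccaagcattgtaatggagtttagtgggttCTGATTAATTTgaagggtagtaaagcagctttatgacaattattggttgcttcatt
ND-51, chr2L:6062798-6062898, minus strand: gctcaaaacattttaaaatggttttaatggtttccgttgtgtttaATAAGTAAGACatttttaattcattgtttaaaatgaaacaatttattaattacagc

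These windows differed widely in base composition. Over the 201 bases centred on the summit, GC content was 27.9% at ND-75, 33.3% at ND-51, 38.3% at ND-SGDH, 41.8% at ND-ASHI, 43.8% at Cyt-c1L and 61.7% at COX7AL2, against a median of 37.8% over all 4805 IDR summits on the arms. None of these 201-base windows, nor those of ATPsynC (54.2% GC) and ATPsynD (48.8% GC), held GAGAG on either strand, a word found in 33.5% of the windows at all IDR summits. The words TATCGATA, GGTCACAC, CACGTG and GCGCATGC were not in the 8 windows either, and at all IDR summits they were found in 0.832%, 1.19%, 2.04% and 0.687% of windows. TCAGT was in the windows of ND-ASHI and ND-SGDH and in 35.3% of those at all IDR summits, and TATAAA in that of ND-ASHI and in 29.5%, both sought on either strand here. These are matches of letters, not sites of a factor.

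Outside ND-ASHI, the complex I genes with a region were ND-75, ND-SGDH and ND-51 among the stronger ones. ND-75 (FBgn0017566) encodes the large iron-sulphur subunit of the arm that takes up electrons. Its IDR peak, with rank 1419 and a score of 382, lay between genes, 781 bp upstream of a start of ND-75 and 202 bp from the start of CG1632. It ranked 1768 and 614 in replicates 1 and 2 and was not listed within 1000 bp in replicate 3. ND-SGDH (FBgn0011455), an accessory subunit gene, had an IDR peak with rank 3507 and a score of 215, 703 bp upstream of a start and in an intron of RhoGAP68F, 335 bp from a start of that gene. Its ranks were 4082 and 4018 in replicates 1 and 2, and none was listed in replicate 3. So at both genes the peak was nearer to a neighbour and came from replicates 1 and 2.

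ND-51 (FBgn0031771) encodes the subunit that binds NADH. Its region stood just below the IDR set, with rank 4887 in the pooled list and a score of 172, where the lowest IDR score is 173.8. The summit lay between genes, 91 bp upstream of a start of ND-51 and 141 bp from that of CG13994. It ranked 3130, 18534 and 5351 in replicates 1, 2 and 3, so replicate 2 placed it far lower than the others. Within 500 bp, complex I had a region at 1 of 40 genes in the IDR set and at 6 in the pooled list. In the whole lists of replicates 1, 2 and 3 it had one at 11, 12 and 6. Of all protein-coding genes, 13.0% had one in the IDR set and 32.0% in the pooled list, and 37.6%, 41.0% and 28.5% in the replicates. The complexes hold few genes, and none was tested against these shares.

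None of the 7 complex II genes had an IDR summit within 500 or 1000 bp, against 13.0% and 16.1% of all protein-coding genes. A pooled region lay within 500 bp at 2 of them, against 32.0% of all. With 7 genes such counts do not set the complex apart. SdhC (FBgn0037873), the gene of a membrane anchor of succinate dehydrogenase, had a pooled region of rank 11237 and a score of 88.4. Its summit lay 364 bp upstream, but 34 bp from the start of Tctp. SdhAL (FBgn0036222), a copy of the flavoprotein gene SdhA, had one of rank 22274 and a score of 51.1, 121 bp upstream and in an intron of CG44837. Both are far down the list. SdhA (FBgn0261439), the flavoprotein gene itself, had no pooled region within 1000 bp but was listed in all 3 replicates at that distance, with ranks 5094, 3882 and 5340 in replicates 1, 2 and 3. These summits lay 816, 848 and 920 bp upstream of SdhA and 15, 47 and 119 bp from the start of cer. Close to its own start SdhA had weaker regions, of rank 21195 in replicate 2, 43 bp upstream, and 13539 in replicate 3, 45 bp upstream. Replicate 1 listed none within 500 bp. SdhB, the gene of the iron-sulphur subunit, was among the genes with no region within 1000 bp in any list.

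In complex III, none of 11 genes had an IDR summit within 500 bp, against 13.0% of all protein-coding genes. Cyt-c1L had one within 1000 bp, against 16.1% of all. Cyt-c1L (FBgn0039651), a copy of the gene for the haem subunit cytochrome c1, had a peak of rank 4656 with a score of 178, near the lower end of the IDR set, between genes and 690 bp upstream, with no other start site within 1000 bp. It ranked 6129, 5092 and 4697 in replicates 1, 2 and 3. It was thus listed at a similar rank in every replicate. Its parent gene Cyt-c1 (FBgn0035600) had a pooled region of rank 19270 and a score of 57.2 in its own intron, 476 bp downstream of the start. UQCR-14L (FBgn0039576), a copy of a small accessory subunit gene, had one of rank 25523 and a score of 46.2 in its coding exon, and this was listed in replicate 3 alone among the replicates, at rank 12129.

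In complex IV, none of 17 genes had an IDR summit within 500 bp, against 13.0% of all protein-coding genes. COX7AL2 had one within 1000 bp, against 16.1% of all. COX7AL2 (FBgn0085201, 2L from 2192525 to 2197912, minus strand) is a copy of the small subunit gene COX7A. Its IDR peak, with rank 1891 and a score of 322, lay in its own intron, 604 bp upstream of one of its 3 start sites, with no start of another gene within 1000 bp. The strongest region within 1000 bp of a start ranked 2488 in replicate 1, 1703 in replicate 2 and 2390 in replicate 3. In replicates 1 and 2 this was the intronic region, while in replicate 3 it lay 818 bp upstream of another start. Within 500 bp the gene had only a weaker pooled region, of rank 11334 and a score of 87.7.

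The other complex IV regions were weaker or seen in fewer replicates. COX7C (FBgn0040773) had a pooled region of rank 7770 and a score of 121 in its intron, 201 bp from its start and 65 bp from that of oys, listed at ranks 6278, 7168 and 5492 in replicates 1, 2 and 3. COX5B (FBgn0031830) had one of rank 15424 and a score of 68.1, 86 bp downstream of its start. COX6B (FBgn0031066), at rank 3243, was listed in replicate 1 and in neither other replicate, with the summit 104 bp from its start and 104 bp from that of CG18809. COX5A (FBgn0019624) ranked 4417 in replicate 1 and 10379 in replicate 2, with nothing listed in replicate 3 or the pooled list. COX7C, COX5B, COX6B and COX5A all encode small nuclear subunits of cytochrome c oxidase.

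In complex V, besides ATPsynC, ATPsynD had an IDR peak within 1000 bp. ATPsynD (FBgn0016120) encodes a subunit of the stalk that holds the catalytic head. The peak, with rank 4282 and a score of 189, lay 793 bp upstream of its start but 63 bp from the start of cdi, in the 5′ untranslated region of that gene. It ranked 4291 and 7313 in replicates 1 and 2 and was not listed within 1000 bp in replicate 3. Close to its own start, within 500 bp, ATPsynD had a region of rank 21082 in the pooled list, 43 bp upstream and 52 bp from the start of mRpL55. The replicates placed a region there higher, at rank 6245 in replicate 1, 4 bp downstream, and 8314 in replicate 2, 132 bp upstream, with none in replicate 3.

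Among the other ATP synthase genes, blw (FBgn0011211), which encodes the alpha subunit of the catalytic head, had a pooled region of rank 6959 and a score of 132, 150 bp upstream and between genes. The strongest region within 500 bp of the start of blw ranked 11403 in replicate 1, with the same distance. In replicate 2 the strongest ranked 10440, but its summit lay farther off, 478 bp upstream. In replicate 3 it ranked 2373, the highest of the 3, with the summit 183 bp upstream. ATPsynCF6 (FBgn0016119), the gene of coupling factor 6 of the stalk, had a pooled region of rank 11033 and a score of 89.7, 151 bp upstream and 63 bp from the start of Sec13. ATPsynG (FBgn0010612), a small subunit gene, ranked 3257 in replicate 1, 490 bp upstream of its start and 117 bp from that of SCAR, and 2384 in replicate 2, 663 bp upstream. It had no region within 1000 bp in replicate 3 or in the pooled list. In complex V, 1 of 16 genes had an IDR summit within 500 bp and 4 a pooled one, against 13.0% and 32.0% of all protein-coding genes.

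**Figure D2:**
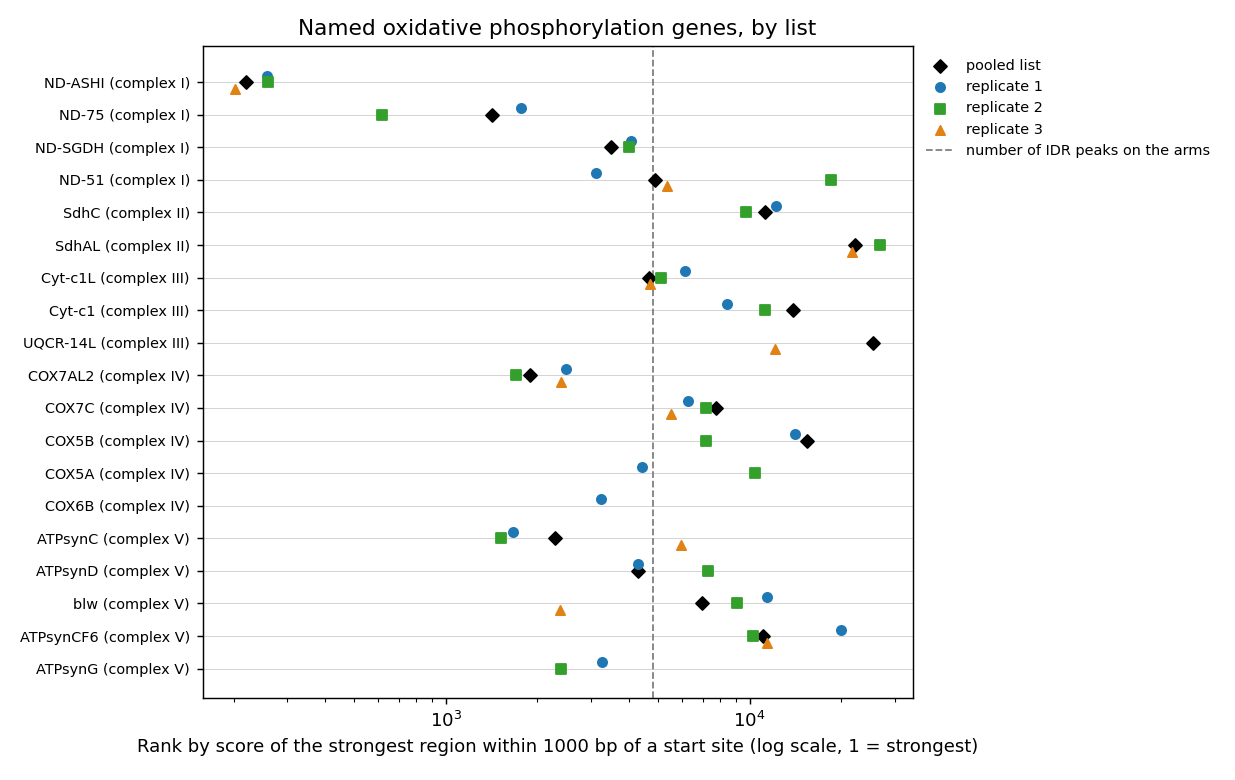
Rank by score (x axis, log scale, 1 the strongest) of the strongest region within 1000 bp of a start site at 19 named genes, by complex, in the pooled list and in each replicate; a missing symbol means no listed region. ND-ASHI ranked between 202 and 260 in every list, while most other genes lay near or beyond the dashed line at 4805, the number of IDR peaks on the arms.

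**Figure D3:**
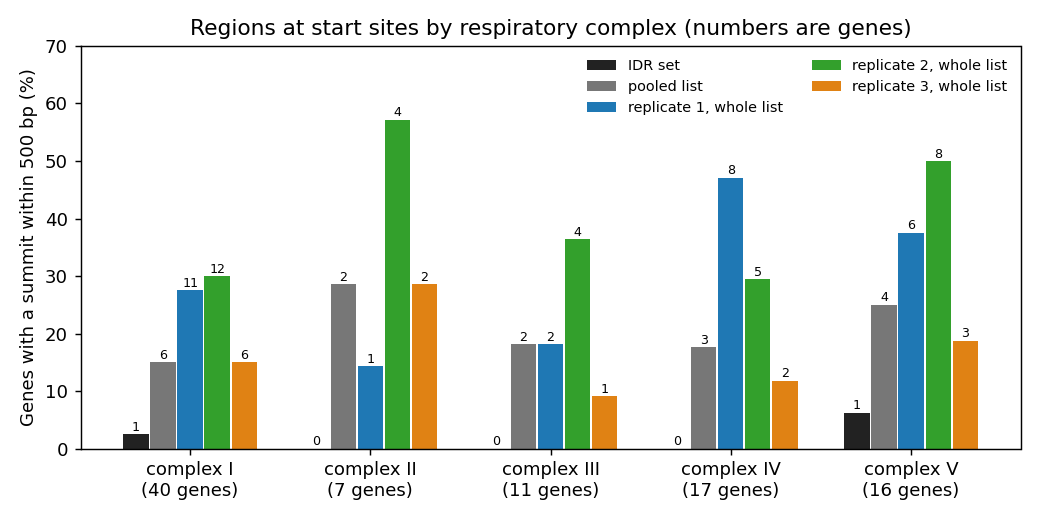
Percentage of the genes of each complex with a summit within 500 bp of a start site (y axis) in the IDR set, the pooled list and the whole list of each replicate, with the number of genes above each bar. Only complexes I and V have an IDR gene, 1 each, and replicate 3 has 6, 2, 1, 2 and 3 genes in complexes I to V. Of all protein-coding genes, 13.0% had a summit in the IDR set and 28.5% in replicate 3.

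Where a region was listed, it often stood low in its list. The strongest region within 500 bp had a median rank of 12846 in the pooled list over the 17 genes that had one, against 6396.5 over the 4472 protein-coding genes that had one. In replicate 1 the median was 11806 for the oxidative phosphorylation genes and 6843.5 for all protein-coding genes. In replicate 2 it was 13396 for the oxidative phosphorylation genes and 6894.5 for all, and in replicate 3 it was 10444 for the oxidative phosphorylation genes and 6722 for all. The order was the same in all 3 replicates, over the genes that had a region only. For 9 of the 17 pooled regions the start of another protein-coding gene also lay within 500 bp of the summit, and in 4 it was the nearer one. These counts were not made for all protein-coding genes with a pooled region, so they do not set the oxidative phosphorylation genes apart. With or without a region, 46.2% of the oxidative phosphorylation genes had another protein-coding start within 500 bp of their own, against 30.8% of all protein-coding genes. Of the 7 genes with an IDR summit within 1000 bp, 5 (71.4%) had it beyond 500 bp, against 430 genes (19.1%) of all with such a summit.

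Agreement between replicates was limited. A region within 500 bp was listed in all 3 replicates at 7 genes, namely ND-51, ND-ASHI, COX7AL2, COX7C, ATPsynC, ATPsynCF6 and blw, which is 7.69% of the 91, against 17.2% of all protein-coding genes. The count asks for a region near any start, not for the same region in each replicate. At COX7AL2 the summit was at 2197581 and 2197748 in replicates 1 and 3, but at 2192484, near another start, in replicate 2. At blw it was 478 bp upstream in replicate 2, against 150 and 183 bp in replicates 1 and 3. A further 17 genes (18.7%) had one in 2 replicates, against 17.6% of all protein-coding genes, and 20 (22.0%) in 1 replicate, against 20.0%. In none of the replicates was a region listed at 47 genes (51.6%), against 45.1% of all protein-coding genes. Within 1000 bp of a start, 34 of the 91 genes (37.4%) had no region in any list, against 35.7% of all protein-coding genes. The share with nothing nearby was thus close to that of the annotation, while the share with a region in every replicate was lower.

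The genes with no region within 1000 bp in any list came from every complex. They numbered 16 of 40 in complex I, 3 of 7 in complex II, 3 of 11 in complex III, 7 of 17 in complex IV and 5 of 16 in complex V. Over all protein-coding genes the share was 35.7%. In complex II they were SdhB, SdhBL and SdhCL, in complex III UQCR-11, UQCR-6.4 and UQCR-C1, the last a core subunit. In complex IV they were COX4L, COX5BL, COX6AL2, COX6CL, COX7A, COX7AL and COX8. In complex V they were ATPsynCF6L, ATPsynF, ATPsynO, ATPsynbeta and ATPsynbetaL, of which ATPsynbeta encodes the catalytic beta subunit. ATPsynbeta and the complex I gene ND-49 lie on chromosome 4, for which the pooled list holds 2 regions in all, against 47, 3 and 8 in replicates 1, 2 and 3.

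The copies with L symbols and the other members stood in a different order in replicate 3 than in replicates 1 and 2. Many duplicated respiratory chain genes of Drosophila are known for expression in the testis. Within 1000 bp, the whole list of replicate 1 had a region at 4 of 25 copies (16.0%) and 31 of 66 other members (47.0%). The numbers in replicate 2 were 8 copies (32.0%) and 37 other members (56.1%). In replicate 3 they were 11 copies (44.0%) and 9 other members (13.6%). The copies thus had the lower share in replicates 1 and 2 and the higher share in replicate 3. Over all protein-coding genes the shares were 44.3%, 47.3% and 36.4% in replicates 1, 2 and 3. The other members stood above these shares in replicates 1 and 2 and below in replicate 3, and the copies the reverse. Within 500 bp the shares were 8.00% of the copies and 39.4% of the other members in replicate 1. They were 20.0% of the copies and 42.4% of the others in replicate 2, and 20.0% of the copies and 13.6% of the others in replicate 3. Over all protein-coding genes they were 37.6%, 41.0% and 28.5%. So at this distance the copies were lower in each replicate, and the other members in replicate 3 only. Replicate 3 also had the lowest share of all protein-coding genes with a listed region. Whether depth or library quality moves with this was not tested, because the files give neither.

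**Figure D4:**
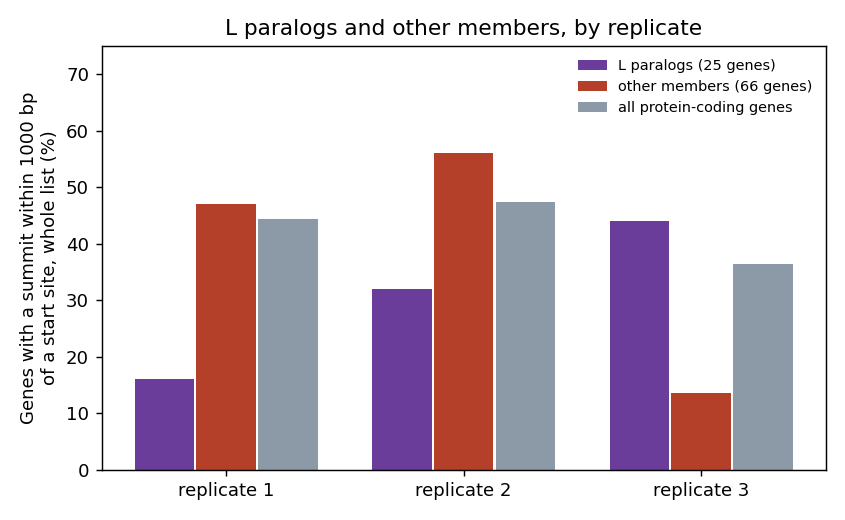
Percentage of genes with a summit within 1000 bp of a start site in the whole list of each replicate (y axis), for the 25 copies with L symbols, the 66 other oxidative phosphorylation genes and all 13968 protein-coding genes. In replicate 3 the copies reach 44.0% and the other members 13.6%, the opposite order to replicates 1 and 2.

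The members were compact genes. Their median length was 1100 bp, against 2164 bp for all protein-coding genes, and 42 of them (46.2%) had the start of another protein-coding gene within 500 bp of their own, against 30.8% of all. The number of start sites was similar, with a mean of 1.44 for the members and 1.41 for all genes, but reached at most 3 in the members and 16 over all genes. Share by number of start sites was lower in the members where there were 1 or 2: with 1 site, 0 of 56 members had an IDR summit within 500 bp, against 7.64% of all genes with 1 site, and with 2 sites 0 of 30, against 21.1%. Among the 5 members with 3 start sites 2 had one, against 36.8% of all such genes.

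Counted around the most upstream start site of each gene, the summits of the pooled list numbered 8.79 per 100 members within 200 bp, against 20.5 per 100 other protein-coding genes. In replicates 1, 2 and 3 there were 17.6, 22.0 and 12.1 per 100 members, against 24.4, 27.9 and 16.6 per 100 other genes. Each was lower at the members. From 1000 to 2000 bp upstream the values were 20.9 per 100 members and 20.2 per 100 other genes in the pooled list, and 25.3, 26.4 and 12.1 per 100 members, against 21.3, 23.1 and 19.9 per 100 other genes, in replicates 1, 2 and 3. The density at a distance was therefore above that of other genes in replicates 1 and 2 and below it in replicate 3. The median distance from a start to the nearest summit of the pooled list was 4166 bp for the members and 2273 bp for all protein-coding genes. In the whole lists it was 1766 bp for the members and 1577 bp for all genes in replicate 1, 1226 bp and 1277 bp in replicate 2, and 5028 bp and 2466 bp in replicate 3. On the strongest regions the members had the shorter median in replicates 1 and 2, with 6737 bp against 9721 bp and 7080 bp against 8688 bp, but not in replicate 3, with 12680 bp against 12160 bp. In the IDR set it was 11340 bp for the members and 10650 bp for all genes. The distance to the nearest summit thus gave no single order across the lists.

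**Figure D5:**
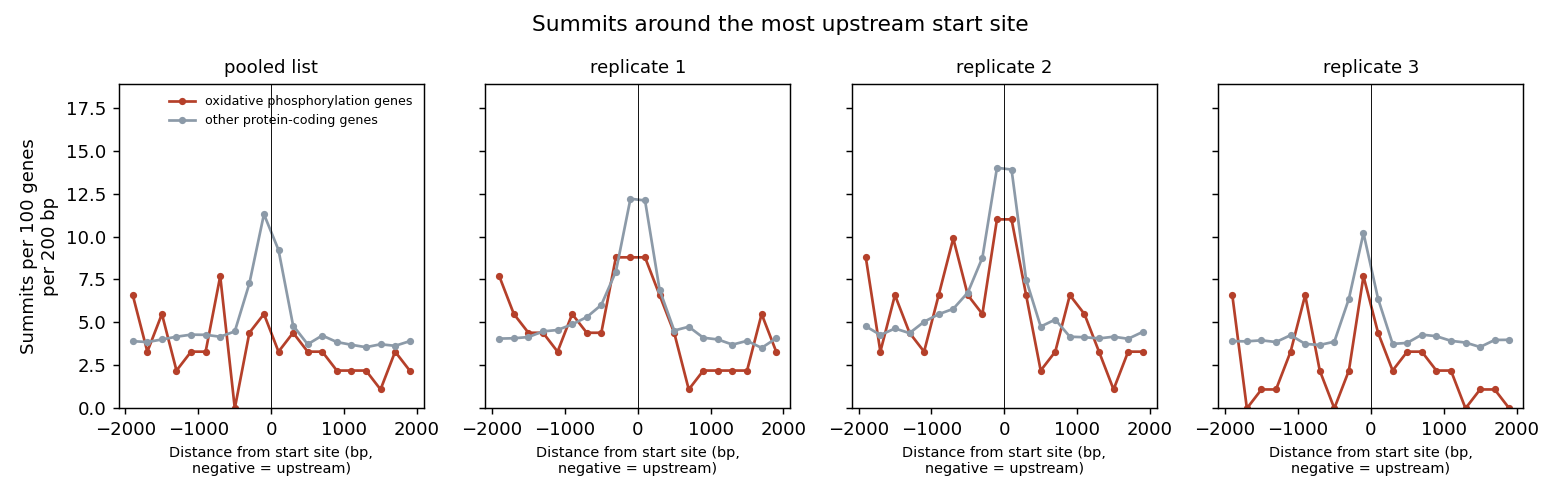
Summits per 100 genes in bins of 200 bp (y axis) by distance from the most upstream start site (x axis, bp, negative upstream), for the 91 oxidative phosphorylation genes and the 13877 other protein-coding genes, in the pooled list and each replicate. Within 200 bp of the start the members lie below the other genes in all 4 panels, for example 8.79 against 20.5 per 100 genes in the pooled list.

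Genes that work with the respiratory chain were counted beside it. The lists held other subunits with cytochrome c, assembly factors, citrate cycle and related enzymes, and mitochondrial carriers with a porin. A mixed list held nuclear regulators, genes for the upkeep of mitochondrial DNA and for ubiquinone synthesis, and a protease gene. Of 60 symbols 48 were in the annotation. An IDR summit lay within 500 bp of a start at 9 of these 48 (18.8%) and a pooled one at 15 (31.2%), against 13.0% and 32.0% of all protein-coding genes as given above. The IDR counts were 1 of 6 other subunits, 2 of 11 assembly factors and 4 of 13 genes of the citrate cycle and related enzymes. They were 0 of 6 in the carrier list and 2 of 12 in the mixed list.

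The strongest of these regions lay at Lon, the gene of a mitochondrial protease, with rank 133 and a score of 1166 in the IDR set, 104 bp upstream of a start, and ranks of 156, 288 and 75 in replicates 1, 2 and 3. CIA30, the gene of a complex I assembly factor, followed with rank 210 and a score of 986, 115 bp upstream. Cyt-c-d, one of the cytochrome c genes, had rank 229 and a score of 960, 362 bp downstream. These were at the level of ND-ASHI, well above every other member. Fum1 shares the region of ND-ASHI. Idh3g and Idh, genes of isocitrate dehydrogenases, had ranks 672 and 2936, and ScsbetaA, a succinyl-CoA synthetase gene, 2789. ERR, a nuclear receptor gene, had rank 2146, and Cox17, the gene of a copper chaperone for complex IV, 4094.

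The promoters of the members, from 250 bp before to 50 bp after the most upstream start, were searched for 7 words, each on both strands unless stated. TATCGATA, the DNA replication-related element bound by DREF, was in 11.0% of the members and 9.36% of all protein-coding promoters of that length. GGTCACAC, the core of the promoter word known as motif 1, was in 17.6% of the members and 7.69% of all. One or both of them were in 24 of the 66 members that are not copies (36.4%) and 1 of the 25 copies (4.00%), against 16.1% of all. Of the 25 members with either word, 1 had an IDR summit within 500 bp (4.00%), against 15.4% of the 2245 protein-coding genes with either word. These shares are given as descriptions, and whether they differ was not tested.

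The remaining words gave other orders. GAGAG, the core word of GAGA factor, was in 25.3% of the members and 29.7% of all promoters, with 44.0% in the copies and 18.2% in the other members. It was in 42.6% of the promoters of protein-coding genes with an IDR summit within 500 bp, against 27.8% of those without. TATAAA on the sense strand was in 39.6% of the members and 32.1% of all, TCAGT on the sense strand in 24.2% and 36.1%, and CACGTG in 4.40% and 4.20%. GCGCATGC was in none of the 91 members and in 1.05% of all promoters. GC content had a median of 34.3% in the members and 38.0% in all protein-coding promoters. The part of base composition in these shares was not tested.

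Examples of the first 2 words are shown with 10 bases on each side, to show the words in members with and without a listed region. They are from RefSeq's assembly of the dm6 release, 5′ to 3′ on the strand of the gene, with the word in capitals (its reverse complement where it lies on the other strand).
ATPsynC, motif 1, chr3R:31219779-31219806, minus strand: ctactgttatGGTCACACtgcgcctatt
COX4, motif 1, chr2L:19958641-19958668, plus strand: ttcgagatgtGGTCACACttctctgcat
COX4, DRE, chr2L:19958601-19958628, plus strand: cgattgaataTATCGATAtattaatatt
ND-B14.5A, DRE, chrX:2172445-2172472, plus strand: tcgcgatagtTATCGATAagtatatcaa
ND-PDSW, motif 1, chr2L:3466120-3466147, plus strand: tgcggcatagGTGTGACCactacctcga
ATPsynC holds its word 166 bp upstream of the most upstream start and was the gene with both a word and an IDR summit. COX4, which encodes a nuclear subunit of cytochrome c oxidase, holds both words, at 102 and 62 bp upstream of its start, and had a region within 500 bp in replicate 1 alone. ND-B14.5A had one in replicate 2 alone, and ND-PDSW in no list. A match is a description of letters and says nothing of which factor is bound.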

How the data were processed

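The deposited files are peak lists on dm6, whose region score is the authors' own; it served only to rank and filter within a list. A replicate's list derives, per the file listings, from its own alignments plus 1 file common to the replicates, the pooled list from the 3 replicates together, and the IDR set from these lists. Caller, aligner, versions and IDR threshold: not given in the sources used here. Read depth is unknown. Lists on dm3 were not used.

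Summit distances to start sites of Ensembl release 115 were computed with Python 3.11.15, numpy 2.4.6 and scipy 1.17.1 and plotted with matplotlib 3.10.9. The arms of the RefSeq assembly match, with 0 regions past an end. Coordinates are 1-based. Counting was tested on simulated data. Intervals are Clopper-Pearson. Differences were tested by exact sign flips over replicates.

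Members, gene lists and words were chosen with earlier results of these data known. Genes are named when they have an IDR summit within 1000 bp or one of the strongest regions of a replicate within 500 bp, when they are among the 3 highest-scoring pooled genes of a complex, when no region is listed and the complex has 10 or fewer such genes, when they neighbour a named region, or when a related gene has an IDR summit within 500 bp. ND-49, named for its chromosome, SdhA, for its ranks, and COX4, ND-B14.5A and ND-PDSW, named for a printed sequence, were chosen after their values were seen. Alternatives were other distances, start-site and overlap rules, other numbers of regions, omission of the L copies and omission of each replicate.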

Additional observations from a re-analysis of the deposited data

How the results depend on the processing

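The mean difference between the oxidative phosphorylation genes and other protein-coding genes on the strongest replicate regions was below 0 under every alternative run, from -11.9 to -4.94 percentage points, and from -11.5 to -8.04 with each replicate left out. The IDR count of 2 genes was 1 within 250 bp, 7 within 1000 bp and 1 when the region had to overlap the start. Sets made without 1 replicate gave 1 to 3 genes: ND-ASHI alone without replicate 1 or 2, and ND-ASHI, ATPsynC and ATPsynG without replicate 3. Without replicates 1, 2 and 3 these sets held 2784, 2957 and 3477 regions, fewer than the 4805 of the IDR set. Their counts are therefore not on one footing with the IDR count. In the same order, the shares were 1.10%, 1.10% and 3.30%, against 7.53%, 7.46% and 11.3% of all protein-coding genes. The pooled count of 17 was 11 with overlap of the start and 5 among the strongest 10000 regions. The mean share of 4.03% on the strongest regions was 9.52% within 1000 bp and 10.6% with the strongest 10000, and ran from 2.20 to 4.95% with each replicate left out; for whole lists the 27.5% ran from 23.1 to 33.5%. Within 1000 bp the IDR counts were 3 in complex I, 1 in III, 1 in IV and 2 in V, against 16.1% of all protein-coding genes. The pooled counts were 1 in complex II and 0 in III within 250 bp, and 4 in III within 1000 bp. Wider or narrower windows and longer or shorter lists change these counts by construction. No paired analysis was possible because there is 1 group and so no second one whose samples could share replicate numbers; the differences between gene sets were taken within each replicate. Of 14 named genes with a pooled region within 500 bp, 4 had a stronger one within 1000 bp: ND-SGDH, Cyt-c1, COX7AL2 and ATPsynD. Depth is unknown, so weak regions limit every count from the whole lists.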
